A study of Mus musculus with 4 samples.

Results

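The genes described here encode the constitutive proteasome, and were found by symbol: every array gene named Psma, Psmb, Psmc, Psmd or Psme with a number was taken, except *Psmb8*, *Psmb9* and *Psmb10*, the interferon-inducible subunits of the immunoproteasome. This rule found 42 of the 19938 genes with a probe set of their own. Of these, 16 encode subunits of the core, 17 subunits of the cap, 3 chaperones that help to assemble the cap and 4 activators. The other 2, *Psmc3ip* and *Psme3ip1*, share the letters of the symbol but encode no proteasome subunit, and are given apart. All 42 genes passed the filter on low values, and the 40 proteasome genes lie on 16 chromosomes.

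The proteasome is the protease that removes proteins tagged with ubiquitin. Its core is a barrel of stacked rings, in which outer rings of α subunits gate the entrance and inner rings of β subunits carry the proteolytic sites. The cap sits on the barrel, recognises the ubiquitin chain, removes it and unfolds the substrate with a ring of ATPases, and activators of the Psme family can take its place. Dividing T cells make much protein and degrade much of it, and in CD8+ T cells and the cells they recognise the core also cuts the peptides presented on MHC class I.

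Expression was measured with 4 arrays, 1 per sample. CD8+ T cells were isolated by negative selection from spleen and lymph nodes of wild-type (WT) C57BL/6 mice. For 2 days the CTL group, cytotoxic T lymphocytes, received IL-2 while IFN-γ was blocked by an antibody (anti-IFN-γ), and the Tc17 group, IL-17-producing CD8+ T cells, received IL-6 and TGF-β on top of these. The study's methods give anti-CD3 and anti-CD28 as the stimulus of Tc17 cultures. Each group had 2 arrays, which the labels call biological replicates without saying whether they came from separate mice or cultures, so that the p-values cover the spread between these arrays only. The groups are cell cultures polarised in vitro and not sorted effector cells, and no array of unstimulated cells was part of the comparison. The labels do not give the age of the mice, and the study's methods give only an age range for all of its mice.

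The labelled cell type was checked against its markers. The 6 CD8 T cell markers ranged from 5.87 to 10.66 over the 4 arrays, in log2 units of normalised array intensity. The 5 Tc17 genes ranged from 2.13 to 4.09 in the CTL arrays and from 5.36 to 9.22 in the Tc17 arrays, and the 3 CTL genes from 5.68 to 11.58 and from 3.07 to 9.30. Of the markers of other cells, *Cd4* stayed between 2.83 and 3.28, myeloid, NK and dendritic cell markers between 1.92 and 3.09, and of the B cell markers only *Cd79b* exceeded 3.25, at 4.53 to 5.14. Arrays of one group correlated across genes at 0.993 in CTLs and 0.993 in Tc17 cells, and arrays of different groups at 0.967 to 0.973.

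The first comparison asked whether the transcripts of the standard proteasome differed between the 2 kinds of CD8+ T cell. Of the 33 core and cap subunits, 9 fell in Tc17 cells and 0 rose, by limma with Benjamini-Hochberg adjustment over the 14953 genes tested and a threshold of 0.05. Of all genes tested, 7.44% fell and 8.22% rose, and among the 2463 genes whose mean level lay in the range of the expressed core and cap subunits, 6.50 to 8.93, 17.1% fell. The core and the cap gave similar counts: 4 of 16 core subunits (25%) and 5 of 17 cap subunits (29.4%) fell, with a median log2 difference, Tc17 minus CTL, of -0.36 in each. The median over all genes tested was 0.02.

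The differences were small in size and shared in direction. In 31 of the 33 core and cap subunits the difference was below 0. This held for 46.4% of all genes and for 54.4% of genes in the same range of levels. The 2 exceptions were *Psma8* and *Psmb11*, forms used in the germ line and in the thymic cortex, which were dim on all 4 arrays. With cyclic loess scaling *Psmd2* and *Psmd13* also came out just above 0, at 0.01 each. In 27 of 33 both Tc17 arrays lay below both CTL arrays, which held for 24.8% of all genes and for 40.5% of genes in the same range of levels. In 0 of 33 were both above, against 29.6% of all genes. At its median the Tc17 level was 77.9% of the CTL level. Members that passed and members that missed the threshold formed one range: 16 of 33 (48.5%) had an adjusted p below 0.1, and 19 (57.6%) had an unadjusted p below 0.05. In either direction, these shares were 20.6% and 27.1% over all genes, and 38.8% and 47.7% over genes in the same range of levels. Without *Psma8* and *Psmb11*, the differences had an SD among genes of 0.17 in the core and of 0.19 in the cap, beside a median standard error of a single difference of 0.13. All values are relative to the other genes on the array, since the normalisation gives every array the same overall distribution, and a shift common to all transcripts, or a different yield of RNA per cell, cannot be seen in them.

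**Figure D1:**
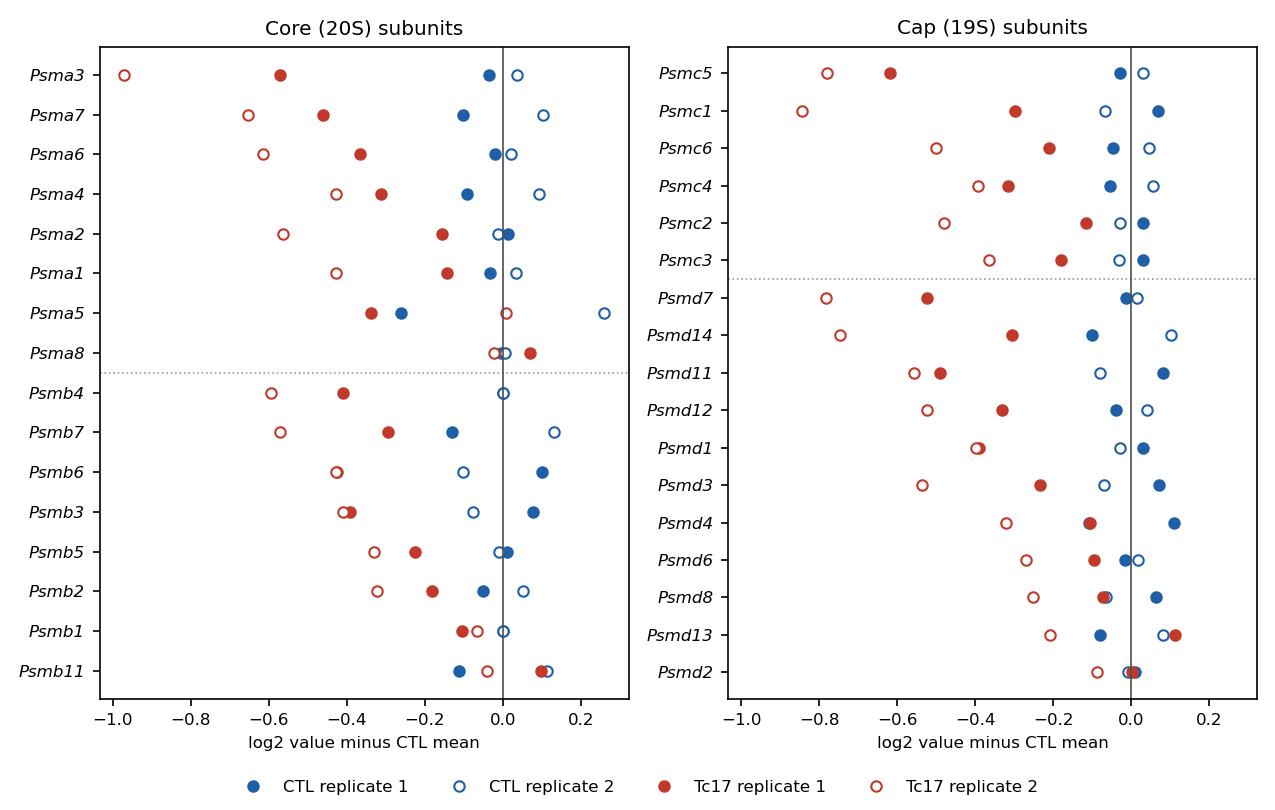
Each row is a core (left) or cap (right) subunit, and the x axis gives its log2 value on each of the 4 arrays minus the mean of the 2 CTL arrays (filled, replicate 1; open, replicate 2; dotted lines part the α from the β ring and the ATPases from the other cap subunits). Both Tc17 arrays lie left of both CTL arrays in 27 of the 33 rows, and the open Tc17 symbol is the lower one in 31.

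These counts rested on few arrays. With every row of the table in the fit in place of the filtered genes, 0 of the 33 subunits passed in limma, with a lowest adjusted p of 0.0709 (*Psmc5*), although 17 fell at an unadjusted p below 0.05. Over all 19938 genes, 182 fell and 324 rose in that fit. Fits without 1 array leave 1 array in a group, so only their differences are given here. In the core the median difference ranged from -0.43 (without Tc17 replicate 1) to -0.30 (without CTL replicate 2). In the cap it ranged from -0.48 (without Tc17 replicate 1) to -0.23 (without Tc17 replicate 2).

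The Tc17 arrays differed from each other in these genes. Tc17 replicate 2 lay below Tc17 replicate 1 in 31 of 33 core and cap subunits (93.9%), compared with 54.8% of all genes and 62.3% of genes in the same range of levels. The CTL arrays showed no such order, with CTL replicate 2 the lower one in 15 of 33 (45.5%). It was lower in 54.0% of all genes and in 58.4% of genes in the same range of levels. Taken one at a time, Tc17 replicate 1 had a median difference from the CTL mean of -0.29 and replicate 2 of -0.43. Replicate 1 was below both CTL arrays in 28 of 33 subunits (84.8%) and replicate 2 in 31 (93.9%). The same held for 33.9% and 37.3% of all genes, and for 44.0% and 51.2% of genes in the same range of levels. The part of what set the 2 arrays apart in these differences was not tested.

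To show the DNA in front of genes that moved together, the 250 bases upstream of the transcription start are given below for 5 subunits (RefSeq, GRCm38.p6, each written 5′ to 3′ on the strand of the gene). *Psma6*, *Psmb4*, *Psmc1* and *Psmd14* were taken as one subunit that fell from each of the α ring, the β ring, the ATPases and the other cap subunits, where the stretch lies in no annotated gene, and *Psmb5* as a subunit that did not pass the threshold but carries the binding motif of the proteasome's own transcription factor. Capitals mark 3 motifs searched on both strands: TGACNNNGC, the core of the antioxidant response element bound by NRF1 and NRF2, CCAAT, the site of NF-Y, and GGGCGG, the site of SP1. Matches of different motifs can share letters, as GGGCGG can with the ends of the others, but none did in the stretches shown. *Psma6* has another annotated start, with its upstream bases at chr12:55398575-55398824. That stretch lies within the annotated gene and is not shown, and the window there held 0 matches of the 3 motifs.
Psma6, chr12:55383972-55384221, forward strand: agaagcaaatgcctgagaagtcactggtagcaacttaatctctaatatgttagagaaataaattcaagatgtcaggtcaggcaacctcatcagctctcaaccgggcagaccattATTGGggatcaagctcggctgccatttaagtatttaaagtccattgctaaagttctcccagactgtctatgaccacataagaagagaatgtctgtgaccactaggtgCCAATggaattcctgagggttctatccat
Psmb4, chr3:94886959-94887208, reverse strand: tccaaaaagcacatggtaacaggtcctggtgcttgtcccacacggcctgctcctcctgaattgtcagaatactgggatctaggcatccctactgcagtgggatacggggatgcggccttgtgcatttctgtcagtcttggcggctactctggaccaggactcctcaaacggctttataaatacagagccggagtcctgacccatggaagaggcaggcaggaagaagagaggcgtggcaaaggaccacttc
Psmc1, chr12:100109952-100110201, forward strand: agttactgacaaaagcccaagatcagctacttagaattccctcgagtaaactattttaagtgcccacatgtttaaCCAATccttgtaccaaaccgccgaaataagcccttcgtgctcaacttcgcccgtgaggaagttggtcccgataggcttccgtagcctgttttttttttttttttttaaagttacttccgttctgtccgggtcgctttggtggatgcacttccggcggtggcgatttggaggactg
Psmd14, chr2:61711444-61711693, forward strand: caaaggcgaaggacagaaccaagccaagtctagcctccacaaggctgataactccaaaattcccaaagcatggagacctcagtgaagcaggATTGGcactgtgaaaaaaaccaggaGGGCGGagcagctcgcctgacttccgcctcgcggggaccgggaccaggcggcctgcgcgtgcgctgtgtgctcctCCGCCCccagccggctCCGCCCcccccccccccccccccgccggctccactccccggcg
Psmb5, chr14:54617996-54618245, reverse strand: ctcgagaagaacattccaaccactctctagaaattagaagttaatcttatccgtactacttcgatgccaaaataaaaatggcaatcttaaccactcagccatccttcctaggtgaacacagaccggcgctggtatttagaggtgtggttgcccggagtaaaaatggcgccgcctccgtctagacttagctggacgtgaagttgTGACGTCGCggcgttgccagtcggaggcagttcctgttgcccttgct
Beside these stretches, all windows of 300 bases, 250 before and 50 after the start, were searched. A window was at hand for 26 of the 33 core and cap genes, 28 windows in all. TGACNNNGC was in 4 of these 28 windows (14.3%), those of *Psmb5*, *Psmb6*, *Psmc6* and *Psmd12*, and in 12.4% of all 32851 promoter windows. In *Psmb5* its first base lay 47 bases before the start. The subunits that fell had 9 windows from 8 genes, since *Psma6* has more than 1 and *Psmd7* none here. Of these 9 windows 0 held it, and 4 of the 19 windows of the other subunits did. CCAAT was in 11 of 28 windows (39.3%), against 37.4% of all windows, and in 5 of these 9. GGGCGG was in 15 of 28 (53.6%), against 35.7% of all windows, and in 4 of those 9. A match is a description of these letters only, and the absence of one says no more than that they are not in this window.

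In the α ring of the core, whose tails close the entrance to the barrel, 3 of 8 members fell (37.5%). The share among genes in the same range of levels was 17.1%. *Psma3* had the largest decrease of any core subunit. It stood at 8.03 and 8.10 in the CTL arrays and at 7.49 and 7.09 in the Tc17 arrays, so that the groups were well apart and Tc17 replicate 2 was the lowest. The difference was -0.77 ± 0.15 (SE, n = 2 arrays per group; limma adjusted p = 0.00520), or 58.5% of the CTL level. Its 3 probe sets agreed within this error, at -0.77, -0.80 and -0.68.

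*Psma7*, another α subunit, was at 7.86 and 8.07 in CTLs and at 7.50 and 7.31 in Tc17 cells. Both Tc17 arrays were lower, by 0.56 ± 0.14 in the mean (67.9% of the CTL level, limma adjusted p = 0.0184). For *Psma6* the values were 8.08 and 8.12 in CTLs and 7.74 and 7.49 in Tc17 cells. Here the CTL arrays almost coincided, and the difference was -0.49 ± 0.14 (71.2%, limma adjusted p = 0.0315). The other α subunits missed the threshold. *Psma1*, *Psma2* and *Psma4* had differences between -0.37 and -0.29 with no overlap between the groups, and adjusted p of 0.218, 0.151 and 0.0914. *Psma5* was the one widely expressed α subunit with overlapping groups. Its CTL arrays, at 7.30 and 7.82, and its Tc17 arrays, at 7.22 and 7.57, each spread over more than the difference between them (-0.17, 95% interval -0.57 to 0.24, limma adjusted p = 0.642). A second probe set of *Psma5*, nearly as bright, was at 7.70 and 7.76 in CTLs and at 7.20 and 7.24 in Tc17 cells, a difference of -0.51 without overlap, so the result for this gene depends on the probe set. With the mean of both, the difference was -0.34 (limma adjusted p = 0.155). *Psma8*, the germ line form that takes the place of *Psma7* in the testis, stayed between 2.65 and 2.75 on all arrays.

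In the β ring 1 of 8 members fell (12.5%), against 7.44% of all genes and 17.1% of genes in the same range of levels. This member was *Psmb4*, a structural subunit without a proteolytic site. It read 8.44 and 8.44 in the CTL arrays and 8.03 and 7.85 in the Tc17 arrays. The CTL arrays could not be told apart and both Tc17 arrays were lower, by 0.50 ± 0.13 (70.6% of the CTL level, limma adjusted p = 0.0233). *Psmb3*, also structural, had a difference of -0.40 ± 0.13 with no overlap and missed the threshold (limma adjusted p = 0.0599), as did *Psmb2* (-0.25 ± 0.13, adjusted p = 0.247). *Psmb1* had the smallest difference of the expressed β subunits, at -0.09 with a 95% interval of -0.36 to 0.19. *Psmb11*, the β subunit of the thymic cortex, stayed between 2.83 and 3.06.

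The 3 β subunits that cut the chain did not pass the threshold, although both Tc17 arrays were lower for each. The same order held for 24.8% of all genes and for 40.5% of genes in the same range of levels. *Psmb5*, with the chymotrypsin-like site that bortezomib blocks, was at 7.69 and 7.68 in CTLs and at 7.46 and 7.35 in Tc17 cells (-0.28, 95% interval -0.56 to 0.00, limma adjusted p = 0.186). *Psmb6*, with the caspase-like site, was at 8.93 and 8.73 in CTLs and at 8.41 and 8.41 in Tc17 cells (-0.43, 95% interval -0.72 to -0.14, limma adjusted p = 0.0508). The spread of *Psmb6* was all among the CTL arrays. *Psmb7*, with the trypsin-like site, was at 8.86 and 9.12 in CTLs and at 8.69 and 8.42 in Tc17 cells (-0.43, 95% interval -0.76 to -0.11, limma adjusted p = 0.0767). *Psmb6* passed with the filter set at the median level, with robust moderation and an intensity trend set together, and with the mean of all probe sets of each gene, and *Psmb7* passed with the trend and robust moderation.

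The inducible subunits that replace these 3 in the immunoproteasome were lower too. *Psmb8* (8.55 and 8.53 in CTLs, 8.16 and 8.13 in Tc17 cells) differed by -0.40 ± 0.12 (limma adjusted p = 0.0549) and *Psmb10* by -0.25 ± 0.13 (adjusted p = 0.227), while *Psmb9* fell, from 8.82 and 8.61 to 8.06 and 8.28 (-0.54 ± 0.14, limma adjusted p = 0.0233).

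**Figure D2:**
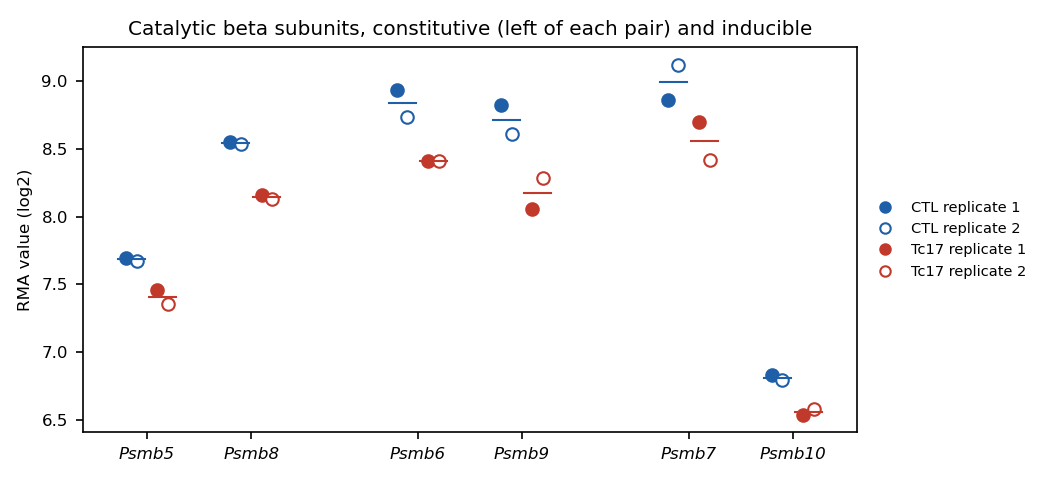
RMA values (log2) on the 4 arrays for the constitutive catalytic subunits *Psmb5*, *Psmb6* and *Psmb7*, each with the inducible subunit that replaces it to its right; lines are group means. In all 6 genes both Tc17 arrays (red) lie below both CTL arrays (blue). This order held for 24.8% of all genes and for 40.5% of genes at the levels of core and cap subunits. Levels of different genes are not comparable because each has its own probes.

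The cap begins with a ring of 6 ATPases that unfold the substrate and open the gate of the core. Both Tc17 arrays were below both CTL arrays in all 6, against 40.5% of genes in the same range of levels. Of the 6, 2 fell past the threshold (33.3%), against 17.1% of genes in that range. *Psmc5* had the lowest adjusted p of all 42 genes. It was at 7.89 and 7.95 in the CTL arrays and at 7.30 and 7.14 in the Tc17 arrays. The gap between the groups was several times the gap within them, and the difference was -0.70 ± 0.13 (95% interval -0.99 to -0.41, limma adjusted p = 0.00374), or 61.6% of the CTL level. *Psmc1* had values of 8.11 and 7.98 in CTLs and of 7.74 and 7.20 in Tc17 cells. Its Tc17 arrays were far apart, and its difference of -0.57 ± 0.17 (67.3%) passed narrowly (limma adjusted p = 0.0460), with a second probe set at -0.42. The other ATPases, *Psmc2*, *Psmc3*, *Psmc4* and *Psmc6*, differed by -0.36 to -0.27 and had adjusted p between 0.0927 and 0.225.

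The 11 other cap subunits form the rest of the base, with its docking sites for ubiquitin, and the lid. Of these 3 fell (27.3%), against 17.1% of genes in the same range of levels. All 3 belong to the lid, as do most of the 11. The lid subunits *Psmd3*, *Psmd6*, *Psmd8*, *Psmd12* and *Psmd13* did not pass. *Psmd14*, the deubiquitinase that cuts the ubiquitin chain off the substrate, forms a pair with *Psmd7*. *Psmd7* had values of 7.73 and 7.76 in CTLs and of 7.22 and 6.96 in Tc17 cells. The CTL arrays were near each other and the Tc17 arrays well below (-0.65 ± 0.14, 95% interval -0.95 to -0.35, 63.5% of the CTL level, limma adjusted p = 0.00732). *Psmd14* itself was at 8.42 and 8.63 in CTLs and at 8.22 and 7.78 in Tc17 cells. Tc17 replicate 1 came close to the CTL arrays here, and the difference of -0.53 ± 0.16 (69.4%) had the highest adjusted p of those that passed (limma, 0.0494). *Psmd11*, a lid subunit that braces the cap against the core, fell from 8.42 and 8.26 to 7.85 and 7.78 (-0.52 ± 0.13, 69.6%, limma adjusted p = 0.0184).

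Of the cap subunits that missed the threshold, *Psmd12* of the lid (-0.43 ± 0.13, limma adjusted p = 0.0505) and *Psmd1* of the base (-0.39 ± 0.13, adjusted p = 0.0565) came nearest to it. *Psmd3*, also of the lid, differed by -0.38 ± 0.14 without overlap. The lid subunits *Psmd6* and *Psmd8* differed by -0.18 and -0.16. In 3 cap subunits the groups overlapped. *Psmd2*, the base subunit on which shuttle proteins dock, had 8.96 and 8.94 in CTLs and 8.96 and 8.87 in Tc17 cells (-0.04, 95% interval -0.32 to 0.23), and its second probe set gave -0.06. That interval leaves out the median difference of the cap. The others were *Psmd13* of the lid (-0.05, 95% interval -0.37 to 0.27) and the ubiquitin receptor *Psmd4*, whose higher Tc17 array, at 6.50, was level with the lower CTL array, at 6.50 (-0.21 ± 0.14). The subunits of one particle were thus measured at differences from -0.77 to -0.04, and whether any 2 of them differ from each other was not tested.

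**Figure D3:**
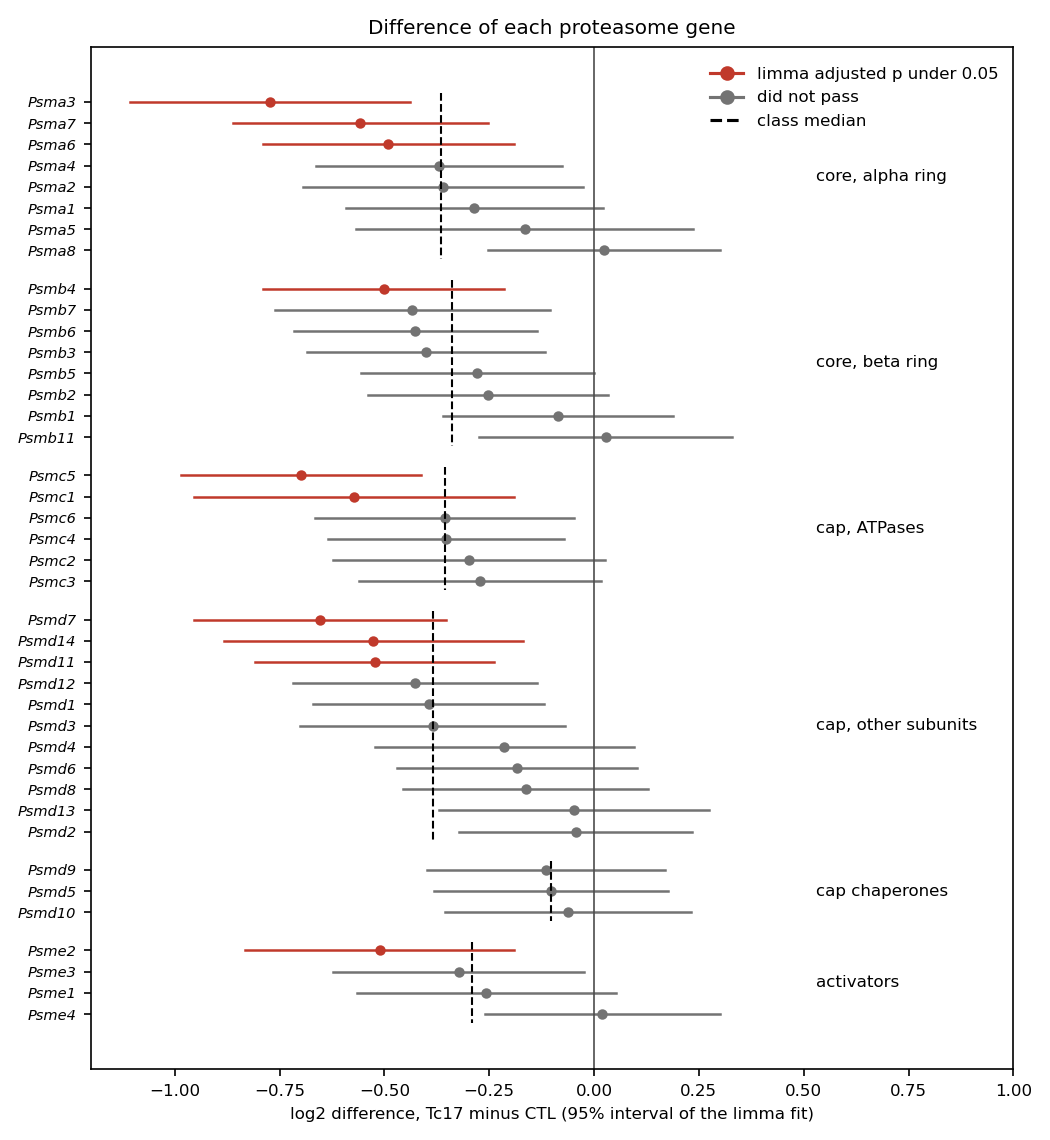
Log2 difference (Tc17 minus CTL, points) of the 40 proteasome genes with the 95% interval of the limma fit (bars), by class; red genes passed at an adjusted p under 0.05 and dashed lines are class medians. The medians of the α ring, β ring, ATPases and other cap subunits lie between -0.38 and -0.34, and that of the cap chaperones at -0.10.

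The chaperones that bring the base of the cap together and then leave did not pass. *Psmd5*, *Psmd9* and *Psmd10* had a median difference of -0.10, and 0 of 3 fell in limma, also at an unadjusted p below 0.05. Since 7.44% of all genes and 10.8% of genes above the median level fell, this count does not set them apart from other genes. *Psmd9*, with the smallest p of the 3, was at 5.96 and 6.12 in CTLs and at 5.93 and 5.92 in Tc17 cells (-0.12, 95% interval -0.40 to 0.17, adjusted p = 0.645).

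Of the 4 activators 1 fell (25%), against 7.44% of all genes and 17.1% of genes at the levels of core and cap subunits. *Psme2*, which with *Psme1* forms the ring known as PA28 that promotes release of peptides from the core, was at 8.58 and 8.67 in CTLs and at 8.29 and 7.95 in Tc17 cells (-0.51 ± 0.15, 70.2% of the CTL level, limma adjusted p = 0.0352). Both Tc17 arrays were lower, replicate 2 the more so. Its partner *Psme1* lies next to it, at chr14:55578494-55581527 with *Psme2* at chr14:55587440-55591101 (GRCm38.p6). *Psme1* was at 8.98 and 8.84 in CTLs and at 8.52 and 8.79 in Tc17 cells, which did not overlap but differed by only -0.26 (95% interval -0.57 to 0.05, limma adjusted p = 0.281). In *Psme1* Tc17 replicate 1 was the lower array, unlike in *Psme2*. *Psme3*, the nuclear form of this ring, had -0.32 ± 0.14 (adjusted p = 0.151). *Psme4*, an activator of another build, had overlapping groups and a difference of 0.02 (95% interval -0.26 to 0.30). *Psmc3ip* and *Psme3ip1*, which encode no proteasome part, differed by -0.07 and -0.04 with overlapping groups.

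The 10 calls were also read in fits without 1 array. In such a fit 1 array stands against 2, and the lone array is assumed to vary like the other group, so a lost call also reflects the smaller design. *Psma3* and *Psmc5* passed in all 4 such fits, with differences from -0.97 to -0.57 and from -0.78 to -0.62. *Psmd7* passed in 3, and was lost without Tc17 replicate 2 (-0.52). *Psma7* and *Psmd11* passed in 2 of 4: *Psma7* was lost without CTL replicate 2 (-0.45) or Tc17 replicate 2 (-0.46), and *Psmd11* without CTL replicate 1 (-0.44) or Tc17 replicate 2 (-0.49). The other 5, *Psma6*, *Psmb4*, *Psmc1*, *Psmd14* and *Psme2*, passed in 1 of 4, the fit without Tc17 replicate 1. For *Psmb4* and *Psma6* the difference hardly moved without a CTL array, at -0.50 and -0.50 for *Psmb4* and at -0.51 and -0.47 for *Psma6*. Without Tc17 replicate 2 the differences of *Psmc1*, *Psmd14* and *Psme2* were -0.30, -0.31 and -0.34. The direction was the same for all 10 genes in all 4 fits.

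**Figure D4:**
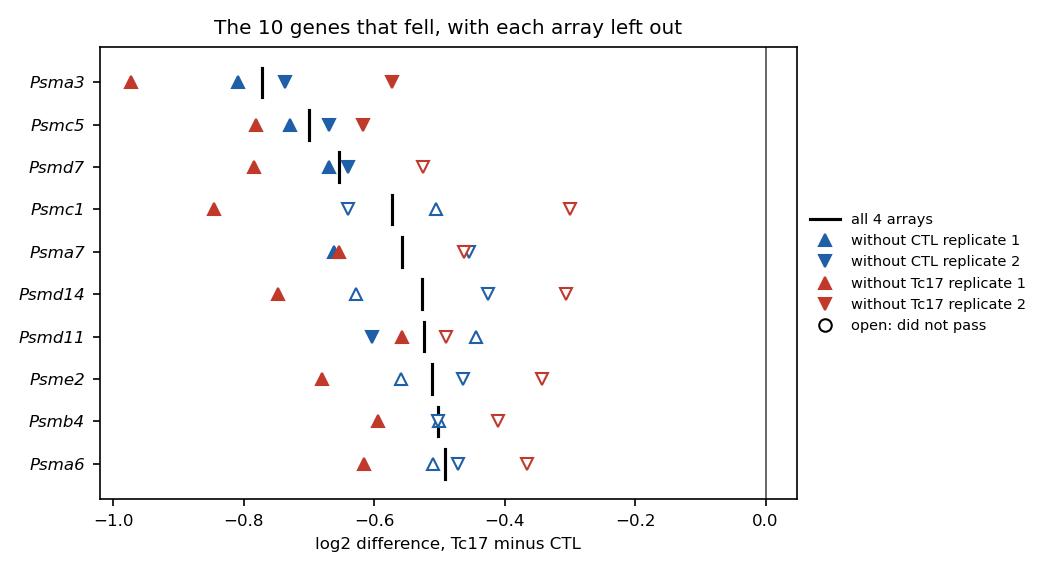
Log2 difference (Tc17 minus CTL) of the 10 genes that fell, with all 4 arrays (bar) and without each array in turn (triangles); open triangles did not pass at an adjusted p under 0.05. *Psma3* and *Psmc5* have filled triangles only, and all differences stay below 0.

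The genes that build, regulate or feed the proteasome were read from 5 lists with 32 genes tested, of 41 listed. Of the 32, 10 fell and 0 rose, against 7.44% of all genes tested that fell and 10.8% of the 9969 with a mean above the median level, and the median difference was -0.18. Among the factors that assemble the core, 2 of 5 fell, and these were *Psmg1* and *Psmg2*, the partners of the chaperone that starts the α ring. *Psmg2* went from 6.71 and 6.71 in CTLs to 6.12 and 5.97 in Tc17 cells (-0.67 ± 0.13, limma adjusted p = 0.00470). *Psmg1* went from 7.07 and 7.24 to 6.60 and 6.38 (-0.66 ± 0.14, limma adjusted p = 0.00730). *Pomp*, which guides the β ring, had a difference of 0.01 with overlapping groups.

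Among the proteins that bind or regulate the cap, 4 of 9 fell (44.4%), with a median of -0.30. The share that fell was 7.44% of all genes and 17.1% of genes at the levels of core and cap subunits. These were the ubiquitin-chain trimming enzymes *Usp14* (-0.60 ± 0.16, limma adjusted p = 0.0273) and *Uchl5* (-0.54 ± 0.13, adjusted p = 0.0157), and, named because they are the other 2 of this count, *Txnl1* (-0.53, adjusted p = 0.0176) and *Ecpas* (-0.52, adjusted p = 0.0181). Of the proteins that carry ubiquitinated substrates to the cap, 3 of 8 fell (37.5%, against the same shares), with a median of -0.21. *Rad23b*, a shuttle that docks on the cap, differed by -0.63 ± 0.13 (limma adjusted p = 0.00677) and *Nsfl1c*, a cofactor of the segregase VCP, by -0.55 ± 0.13 (adjusted p = 0.0169). The third was the shuttle *Ubqln4* (-0.49, adjusted p = 0.0293). In the ubiquitin list *Uba6*, an enzyme that activates ubiquitin, was the single gene analysed and did not pass (-0.23, limma adjusted p = 0.324).

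NRF1, encoded by *Nfe2l1*, is the transcription factor that drives proteasome genes when proteasome activity runs short. Of the 9 genes tested on the list for NRF1 and NRF2, 1 fell (11.1%), beside 7.44% of all genes and 10.8% of genes above the median level. The count for this list is thus near the share over other genes. The gene that fell was *Nfe2l1* itself. It was at 6.88 and 6.94 in CTLs and at 6.29 and 6.25 in Tc17 cells. The arrays of each group lay close together and the groups far apart (-0.64 ± 0.13, limma adjusted p = 0.00531). The related factor *Nfe2l2*, which encodes NRF2, differed by 0.03 (adjusted p = 0.911), and the repressor *Bach1* by 0.34 (adjusted p = 0.0952). The median of the 9 was 0.03. *Nfe2l1* is thus a gene whose mRNA moved in the same direction as the subunits, and its part in their levels was not tested.

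**Figure D5:**
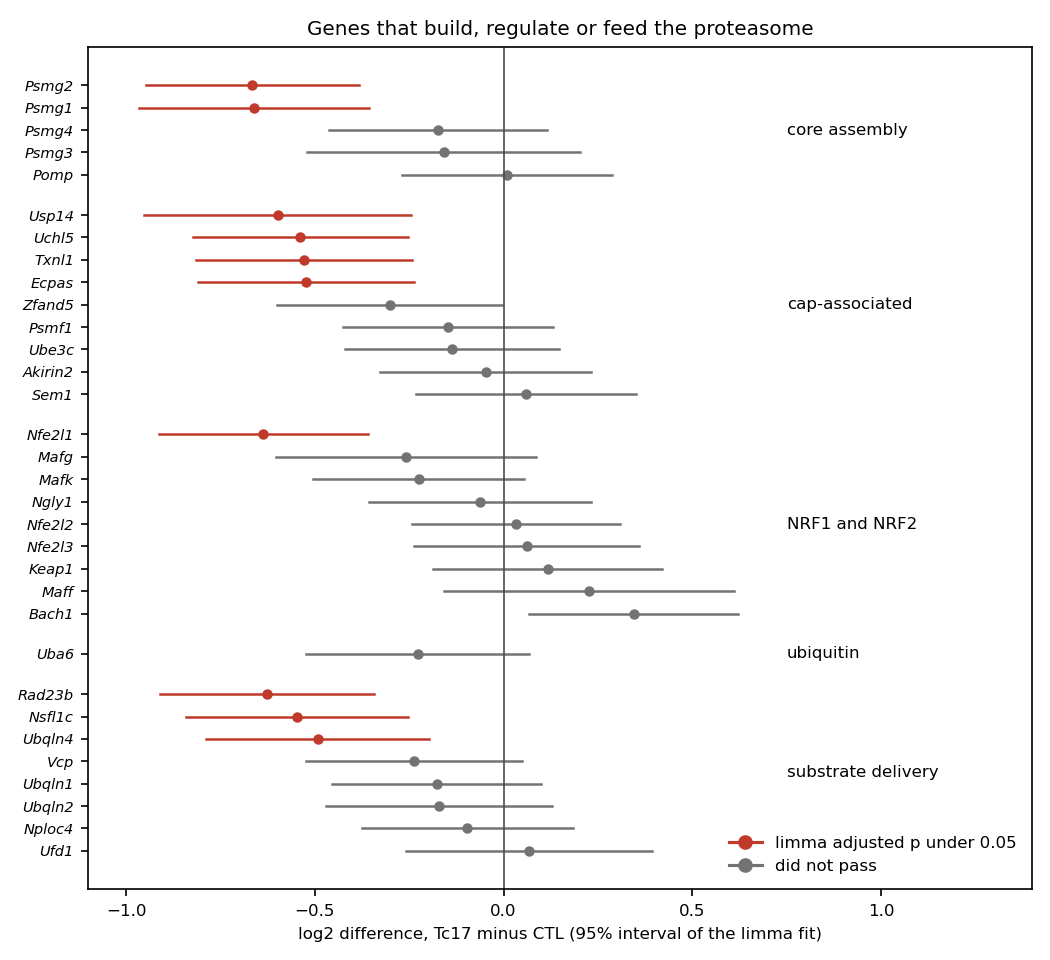
Log2 difference (Tc17 minus CTL, points) of the 32 other genes tested, with the 95% interval of the limma fit (bars), in the 5 lists; red genes passed at an adjusted p under 0.05. All 10 red genes lie below 0, and *Pomp*, *Sem1* and *Nfe2l2* lie near it.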

How the data were processed

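CD8+ T cells of C57BL/6 mice were kept under CTL or Tc17 conditions for 2 days. Per the labels, their total RNA went through 2 rounds of cDNA synthesis, and the biotin-labelled product was hybridised to Affymetrix arrays, with 2 arrays per group. The authors deposited 1 table of log2 values from RMA, a method that subtracts background, equalises the distributions of the arrays (quantile normalisation) and combines each probe set's probes into 1 value. Log base, version and settings were not given in the sources used here, and log2 was taken from the range of values, 1.18 to 13.70. RMA compresses differences of dim probe sets.

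Of 35557 rows, 21789 had 1 gene symbol in the platform annotation, 1621 several and 12147 none. Gene identifiers of 21698 rows matched RefSeq. The brightest probe set stood for each of 19938 genes. One member row naming several genes was left out. The 4985 genes with a mean under the 25th percentile (2.59) were left out, and 14953 were tested with limma 3.58.1 in R 4.3.3 (lmFit and eBayes, two-sided, Benjamini-Hochberg over all genes, threshold 0.05). With 2 residual degrees of freedom per gene, the spread was shared across genes (prior degrees of freedom 8.98). An exact permutation test of 2 against 2 arrays cannot go below p = 0.333. The fit was tested on simulated data, where recovery was required only for changes larger than any found for the subunits.

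Array values are given, in each class, for the 3 members with the largest decrease and the 3 with the largest increase past the threshold, or else for that with the smallest p. They are also given for the catalytic subunits and their inducible counterparts. From each other list the 2 largest changes in each direction past the threshold are named, or else the smallest p. Values of other members and genes were added after they were seen. Members and lists were chosen with earlier results of these data known. Of the 41 genes listed, 8 were not analysed here, and *Ddi1* was under the filter. Alternatives were other filters, moderation, scalings, probe set rules, a replicate block, the methods' t-test and leaving out each array.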

Additional observations from a re-analysis of the deposited data

How the results depend on the processing

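No alternative turned the direction of a median or of a gene that fell. Of the 40 proteasome genes, 7 that did not pass (*Psma5*, *Psma8*, *Psmb11*, *Psmd2*, *Psmd10*, *Psmd13* and *Psme4*) changed sign under some alternative, with a lowest limma adjusted p of 0.804 there. With all 4 arrays and each alternative filter, scaling and probe set rule, the median difference lay between -0.39 and -0.31 in the core and between -0.36 and -0.30 in the cap. Without 1 array it ranged from -0.43 to -0.30 in the core and from -0.48 to -0.23 in the cap. The number of core subunits that fell was 4 of 16. It became 6 with the filter at the median, 6 with the mean of probe sets and 8 with a trend and robust moderation. With every row of the table tested it became 0, where 182 of 19938 genes fell. By the methods' t-test after Benjamini-Hochberg adjustment it became 0 too (lowest adjusted p over core and cap 0.189). That test called 0 of all 14953 genes, so its counts of 0 are not particular to the proteasome genes. The number of cap subunits that fell, 5 of 17, became 7 with the filter at the median, 7 with the trend and robust moderation, 3 with no filter, 3 with cyclic loess, 0 with every row and 0 by the adjusted methods' t-test. Activators that fell, 1 of 4, became 0 with cyclic loess, with every row and by the methods' t-test with and without adjustment. Immunoproteasome subunits that fell, 1 of 3, became 2 with the filter at the median, 2 with the trend and robust moderation, 2 by the unadjusted methods' t-test, and 0 with cyclic loess, every row or the adjusted methods' t-test. Pathway genes that fell, 10, became 0 with every row and 0 by the adjusted methods' t-test, and the unadjusted one gave 1 that rose. At an unadjusted p below 0.05, every row in limma gave 8 core, 9 cap, 1 activator, 2 immunoproteasome and 10 pathway genes that fell, and the methods' t-test gave 4, 5, 0, 2 and 8. With every row, the prior degrees of freedom dropped to 3.13. Fits without 1 array leave 1 array in a group, so their counts of calls are not set beside these. Over all alternatives the genes named kept their side of the threshold in 257 cases, lost a call in 84 and gained one in 9. *Psmc1* was also lost with no filter, cyclic loess and the mean of probe sets, and *Psmd14* with no filter, cyclic loess, median centring and the replicate block. The replicate numbers are shared between the groups, and the labels do not say whether same-numbered arrays share anything more. The deviations of same-numbered arrays correlated at 0.0195 across genes. A single correlation over all genes cannot settle whether they share a mouse, a day or a batch. With the number as a replicate block, 4 core and 4 cap subunits fell. No files gave array depth or detection calls, and the number of arrays limits the precision.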
